A study of Mus musculus with 8 samples.

Results

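The genes described here encode the transporters of the inner mitochondrial membrane (the *Slc25a* family) and the *Tomm* and *Timm* components of the machinery that brings proteins into mitochondria. They were taken by name, as every gene of the table whose symbol is *Slc25a*, *Timm* or *Tomm* followed by a digit. The rule gave 62 of 14608 genes, of which 38 were carriers and 24 belonged to the import class. It used no measured value. Among the 24, *Tomm6os* is an antisense RNA gene that shares 777 bp with *Tomm6* and encodes no import protein. The annotation lists 12 more genes that match the name, among them *Slc25a31*, *Slc25a21* and *Tomm20l*, for which the table has no row, and a gene enters the table only when enough libraries reach the expression minimum of the authors.

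RNA was measured in the outflow tract (OFT), the part of the embryonic heart that gives rise to the great arteries and their valves, at embryonic day 11.5. There were 4 control libraries and 4 from *Mib1V943F/+ Gata6STOP/+* embryos, which carry a missense allele of the ubiquitin ligase gene *Mib1* and a STOP allele of the transcription factor gene *Gata6*, both heterozygous and, as the study describes its crosses, in trans. The labels give the first group as control, with WT in the sample titles and no further genotype, and state that a library pools 3 individuals. The methods of the study describe the pools differently, so the number of embryos behind a library is not settled, and p-values measure the spread between pools. *Gata6* was at 262 ± 18.5 CPM (read counts scaled to the size of the library with TMM factors, mean ± SD, n = 4) in the control-labelled libraries and 249 ± 36.1 CPM in the mutant-labelled ones. Its log2 fold change was -0.08 (limma, adjusted p = 0.752), and the ranges of the groups overlapped, so the level of this transcript does not check the labels. *Mib1* was at 122 ± 15.6 CPM in the control and 128 ± 6.62 CPM in the mutant libraries (SD, n = 4 each), also with overlapping ranges. Library depth ran from 10669420 reads on listed genes (control replicate 2) to 30469165 (mutant replicate 3), and 1 read was worth 0.0325 to 0.0948 CPM. Markers of cardiomyocytes, cushion mesenchyme, endocardium and smooth muscle were all found in the table.

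As background, the inner mitochondrial membrane is tight to ions and metabolites, and SLC25 carriers pass selected ones across it. Adenine nucleotide carriers exchange ADP for ATP, the phosphate carrier brings in the phosphate that ATP synthase uses, and the aspartate/glutamate and oxoglutarate carriers make up the malate-aspartate shuttle, which moves reducing equivalents into the matrix. Nearly all mitochondrial proteins are made in the cytosol, enter through the TOM complex, and are sorted by TIM23 into the matrix and inner membrane or by the small Tims and TIM22, the route that the carriers themselves take. Heart muscle is rich in mitochondria, and the adenine nucleotide and phosphate carriers are among its abundant membrane proteins.

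The 3 most abundant carriers and the pair of glutathione carriers, whose levels differed in opposite directions below, are shown by the 150 bases before their transcription start (RefSeq, GRCm38.p6, 5′ to 3′ on the strand of the gene). They lie at chr8:46211063-46211212 (minus strand) for *Slc25a4*, chrX:36795447-36795596 (plus) for *Slc25a5*, chr10:91123968-91124117 (minus) for *Slc25a3*, chr11:102407518-102407667 (minus) for *Slc25a39* and chr5:8422688-8422837 (plus) for *Slc25a40*. The RefSeq starts differ from the gene ends of the other annotation used here (GENCODE), whose coordinates are given below. By those coordinates the stretches of *Slc25a4* and *Slc25a39* lie inside the gene, and that of *Slc25a3* lies partly inside. Capitals mark GGGCGG (a GC box, bound by Sp1), CCAAT and TATAAA, each searched on both strands.
Slc25a4: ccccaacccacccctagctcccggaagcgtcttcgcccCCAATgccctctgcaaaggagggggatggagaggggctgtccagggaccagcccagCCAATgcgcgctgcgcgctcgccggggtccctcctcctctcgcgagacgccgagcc
Slc25a5: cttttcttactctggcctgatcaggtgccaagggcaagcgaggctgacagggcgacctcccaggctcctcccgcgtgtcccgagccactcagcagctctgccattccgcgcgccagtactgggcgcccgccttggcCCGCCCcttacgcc
Slc25a3: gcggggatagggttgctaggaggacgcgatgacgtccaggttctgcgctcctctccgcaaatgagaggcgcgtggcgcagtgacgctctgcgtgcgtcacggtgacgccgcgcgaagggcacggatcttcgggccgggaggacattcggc
Slc25a39: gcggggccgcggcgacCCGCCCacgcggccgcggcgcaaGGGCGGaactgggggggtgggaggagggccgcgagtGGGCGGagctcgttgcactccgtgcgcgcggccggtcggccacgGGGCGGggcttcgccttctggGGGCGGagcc
Slc25a40: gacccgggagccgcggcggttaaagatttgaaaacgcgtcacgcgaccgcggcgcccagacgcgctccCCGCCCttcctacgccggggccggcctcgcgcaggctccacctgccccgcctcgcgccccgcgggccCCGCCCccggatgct
*Slc25a39* held 5 GC boxes in this stretch and *Slc25a40* held 2, *Slc25a4* held 2 CCAAT boxes and no GC box, *Slc25a5* held 1 GC box and *Slc25a3* held none of the 3 motifs. The stretch cuts off a GC box of *Slc25a3* that begins 152 bases before the start. It also leaves out GC boxes of *Slc25a4* and *Slc25a39*, at 28 and 17 bases after the start. GC made up 67.3% to 82.0% of the 5 stretches. Windows of 300 bases (250 before and 50 after the start) were found for 50 of the 62 genes. Of these, 72% held a GC box, 46.0% a CCAAT box and 4.0% a TATAAA, against 68.7%, 43.2% and 9.02% of the 10773 genes of the whole table that had a window. Motifs of regulators of mitochondrial genes were few. CCGGAAGT, bound by GABPA, was in 12% of the members and 8.71% of the table. It was found in *Slc25a20*, *Timm10*, *Timm10b*, *Timm23*, *Timm29* and *Tomm70a*. TCAAGGTCA, bound by estrogen-related receptors, was in *Timm8b* only among the members (2.0% against 0.334%), and the palindromic motif bound by NRF1 was in 0 of 50 (2.25% of the table). These matches are descriptions of letters in a window.

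Levels differed widely between members. Per kilobase of transcript, *Slc25a4*, the heart and muscle form of the adenine nucleotide carrier, led the carriers at 453 CPM per kb, followed by the phosphate carrier *Slc25a3* at 388 and *Slc25a5*, another adenine nucleotide carrier, at 327. These 3 genes made up 70% of the summed CPM per kb of the 38 carriers (27.1%, 23.2% and 19.6%). The next were the oxoglutarate carrier *Slc25a11* (72.2 CPM per kb) and the glutathione carrier *Slc25a39* (69.0 CPM per kb). At the low end stood *Slc25a35*, an orphan carrier, at 0.469 CPM per kb. The import class was more even. The channel subunit *Timm23* led it at 119.5 CPM per kb, which was 13% of its sum, before the small TOM subunit *Tomm6* (89.1) and the receptor *Tomm22* (73.8). The values were steady within a group, with a coefficient of variation pooled over the groups that had a median of 8.98% and a lowest value of 2.97% in *Slc25a17*. Among members averaging 10 CPM or more, it was highest in *Slc25a37*, at 22.9%.

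No member passed the threshold of 0.05 after adjustment over all genes in the comparison of mutant-labelled with control libraries (limma). Of all genes tested, 0 passed it (0.0%), and 1763 had an unadjusted p under 0.05. These counts are those of limma on log2 values, and count models, the kind of test named in the methods of the study, were not run here. At that unadjusted level 15 of the 62 members stood out (24.2%), 12 lower and 3 higher in the mutant-labelled libraries. The background over all genes was 12.1% in either direction, 6.62% lower and 5.45% higher. The groups did not overlap at all for 12 members, 9 lower and 3 higher, against 7.1% of all genes (3.9% and 3.2%). Without control replicate 2, or without mutant-labelled replicate 2, the count of higher members was 1 (the share of all genes in these fits is not given here). With both left out it was 0 (3.29% of all genes), and 8 members were lower (4.81%). Carriers held 14 of the 15, and the import class held 1. The median log2 fold change was -0.054 over the members, -0.047 over the carriers and -0.071 over the import class, against 0.001 over all genes. The median of the carriers was -0.0092 without mutant-labelled replicate 2. Values were below 0 for 40 of 62 members (64.5%) and for 49.6% of all genes. The plot of fold changes by role shows how these genes were placed.

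**Figure D1:**
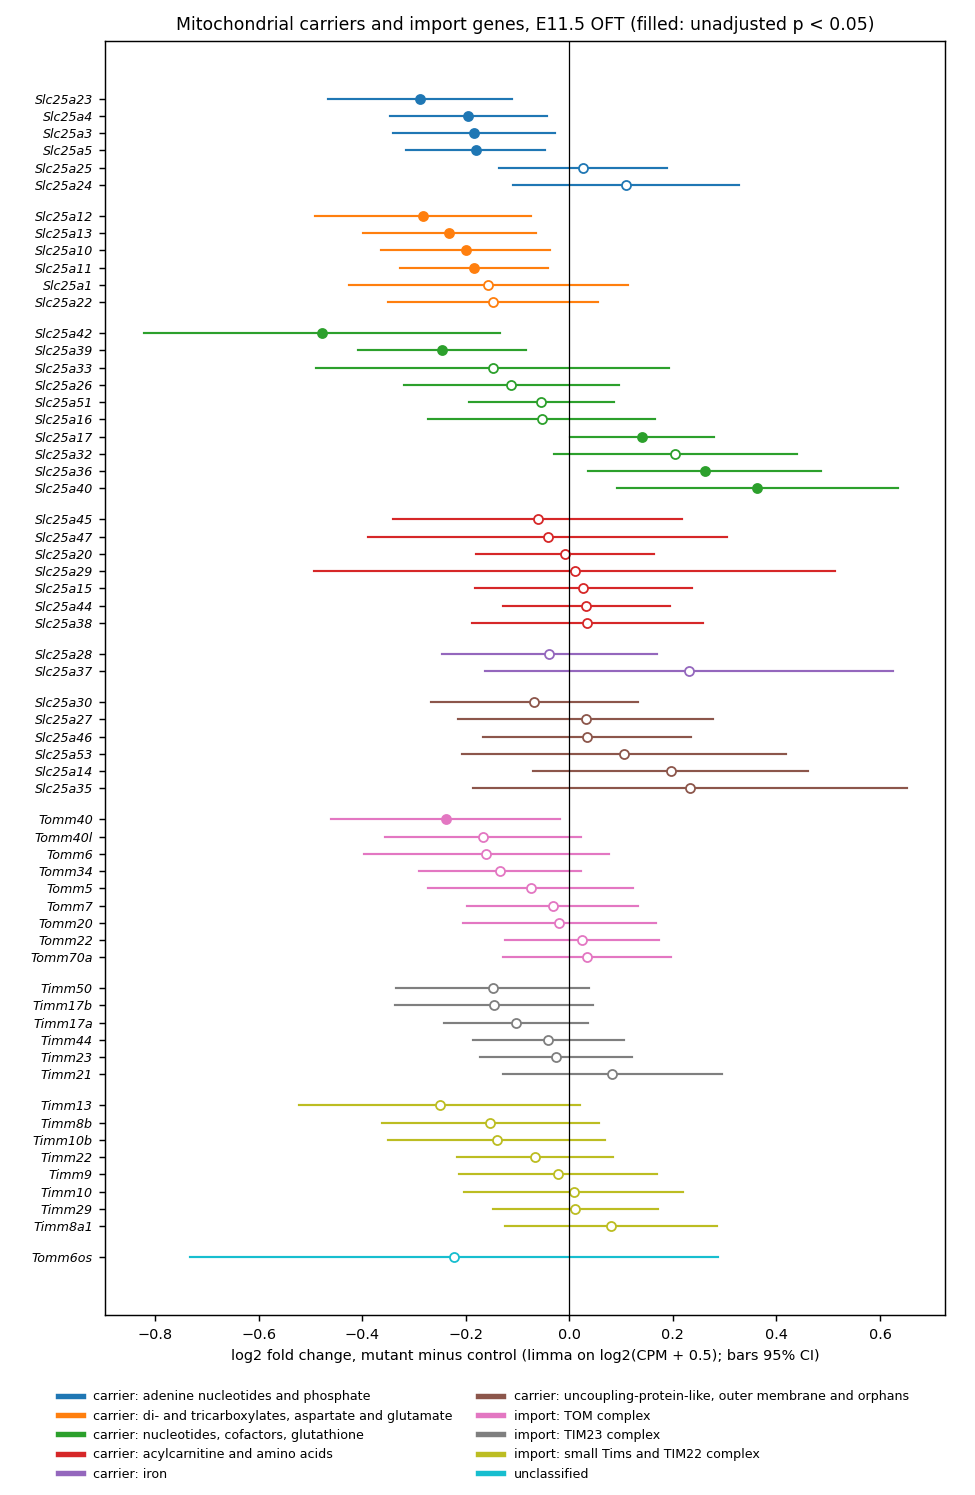
Log2 fold change (mutant-labelled minus control, on the log2(CPM + 0.5) scale) of 61 of the 62 genes, grouped and coloured by role, with bars for the 95% confidence interval of limma and filled points for an unadjusted p under 0.05. The 11 filled points left of 0 are 10 carriers and *Tomm40*, and the 3 right of 0 are *Slc25a40*, *Slc25a36* and *Slc25a17*.

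The carriers that supply ATP synthase and export its product were lower in the mutant-labelled libraries, with differences of mean CPM of -11.8% to -12.8% at the unadjusted level. *Slc25a4* (ENSMUSG00000031633, chr8:46206797-46211284) read 907, 988, 975 and 857 CPM in control replicates 1 to 4 and 824, 827, 775 and 825 CPM in mutant-labelled replicates 1 to 4. Every mutant-labelled library lay below every control. Its log2 fold change was -0.20 ± 0.07 (SE), with an exact permutation p of 0.0286 (two-sided), the smallest that 4 against 4 libraries can give. *Slc25a5* (chrX:36795651-36798807), the form common in dividing cells, read 449, 433, 429.7 and 411 CPM in the controls and 402, 362, 372 and 384 CPM in the mutant-labelled libraries. The groups again did not overlap, and the log2 fold change was -0.18 ± 0.06 (exact permutation p = 0.0286). *Slc25a3* (chr10:91116574-91124059) read 633, 630.1, 598 and 577 CPM against 563, 481, 534 and 569.5 CPM. Its groups were apart by a narrow gap, between 577 and 569.5 CPM, and its log2 fold change was -0.18 ± 0.07.

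The same role group holds the ATP-Mg/phosphate carriers, which answer to calcium and set the size of the adenine nucleotide pool of the matrix. *Slc25a23* (chr17:57043711-57059863) read 57.0, 54.4, 60.2 and 48.4 CPM in the controls and 44.3, 42.3, 44.1 and 48.8 CPM in the mutant-labelled libraries. Mutant-labelled replicate 4 lay just above control replicate 4 and the other 3 lay below all controls, with a log2 fold change of -0.29 ± 0.08 (exact permutation p = 0.0571). Its paralogs had fold changes of the other sign that did not reach the unadjusted level, 0.11 ± 0.10 for *Slc25a24* and 0.03 ± 0.07 for *Slc25a25*. In all, 4 of the 6 genes of this group were lower at the unadjusted level (6.62% of all genes) and none was higher (5.45%), and the median log2 fold change was -0.18.

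All 6 carriers of di- and tricarboxylates, aspartate and glutamate had log2 fold changes below 0 (49.6% of all genes), with a median of -0.19. At the unadjusted level 4 of them were lower (6.62% of all genes), and 3 were after the GC correction described below (6.32%). The aspartate/glutamate carriers are a pair, *Slc25a12* (aralar) and *Slc25a13* (citrin). *Slc25a13* (chr6:6041218-6217173) read 94.5, 92.6, 77.9 and 80.9 CPM in the controls and 71.4, 76.3, 69.9 and 75.9 CPM in the mutant-labelled libraries, with no overlap. Its log2 fold change was -0.23 ± 0.08 (exact permutation p = 0.0286). *Slc25a12* (chr2:71271063-71367749) read 86.6, 68.8, 81.3 and 67.6 CPM against 63.5, 57.1, 58.7 and 70.1 CPM. Mutant-labelled replicate 4 lay within the control range, and the log2 fold change was -0.28 ± 0.10 (exact permutation p = 0.0857). Their partner in the shuttle, the oxoglutarate/malate carrier *Slc25a11* (chr11:70644196-70647479), read 125, 140.3, 137 and 124 CPM against 112, 118, 119.8 and 112 CPM. Here too the groups did not overlap, and the log2 fold change was -0.18 ± 0.07. *Slc25a11* shares 245 bp with *Rnf167* on the opposite strand. The dicarboxylate carrier *Slc25a10* was at 35.1 ± 2.36 CPM against 30.5 ± 1.10 CPM (log2 fold change -0.20 ± 0.07). The citrate carrier *Slc25a1* (-0.16 ± 0.12) and the glutamate carrier *Slc25a22* (-0.15 ± 0.09) did not reach the unadjusted level.

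Among the 11 carriers of nucleotides, cofactors and glutathione, 3 were lower and 3 were higher at the unadjusted level (6.62% and 5.45% of all genes), with a median of -0.05. *Slc25a42*, the coenzyme A carrier, was at 7.31, 8.06, 8.79 and 6.47 CPM in the controls and 6.30, 4.05, 4.84 and 6.47 CPM in the mutant-labelled libraries. Its log2 fold change of -0.48 ± 0.16 was the most negative of the 62 genes, at a low level and with control replicate 4 above mutant-labelled replicate 4 by less than 1 read.

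The glutathione carriers *Slc25a39* and *Slc25a40* differed in opposite directions. *Slc25a39* (chr11:102402985-102407946) read 122, 135, 122 and 113 CPM in the controls and 109.9, 94.4, 102 and 109.6 CPM in the mutant-labelled libraries, a log2 fold change of -0.25 ± 0.07. *Slc25a40* (chr5:8422850-8454797) read 20.9, 14.4, 17.3 and 20.3 CPM against 21.7, 27.2, 21.2 and 23.8 CPM, a log2 fold change of 0.36 ± 0.12 and the most positive of the 62. For both genes the groups did not overlap (exact permutation p = 0.0286 for each). The pyrimidine nucleotide carrier *Slc25a36* read 122, 94.3, 115 and 122 CPM against 130.1, 163, 126 and 125 CPM (log2 fold change 0.26 ± 0.10). *Slc25a17*, a carrier of cofactors in the membrane of peroxisomes rather than mitochondria, read 43.0, 42.2, 42.2 and 44.7 CPM against 47.0, 49.6, 46.0 and 47.3 CPM (0.14 ± 0.06). In both of these every mutant-labelled library was above every control. The S-adenosylmethionine carrier *Slc25a26* had non-overlapping groups in the other direction, 9.20 to 10.1 CPM in the controls and 8.32 to 9.14 CPM in the mutant-labelled libraries, but a log2 fold change of only -0.11 ± 0.10.

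**Figure D2:**
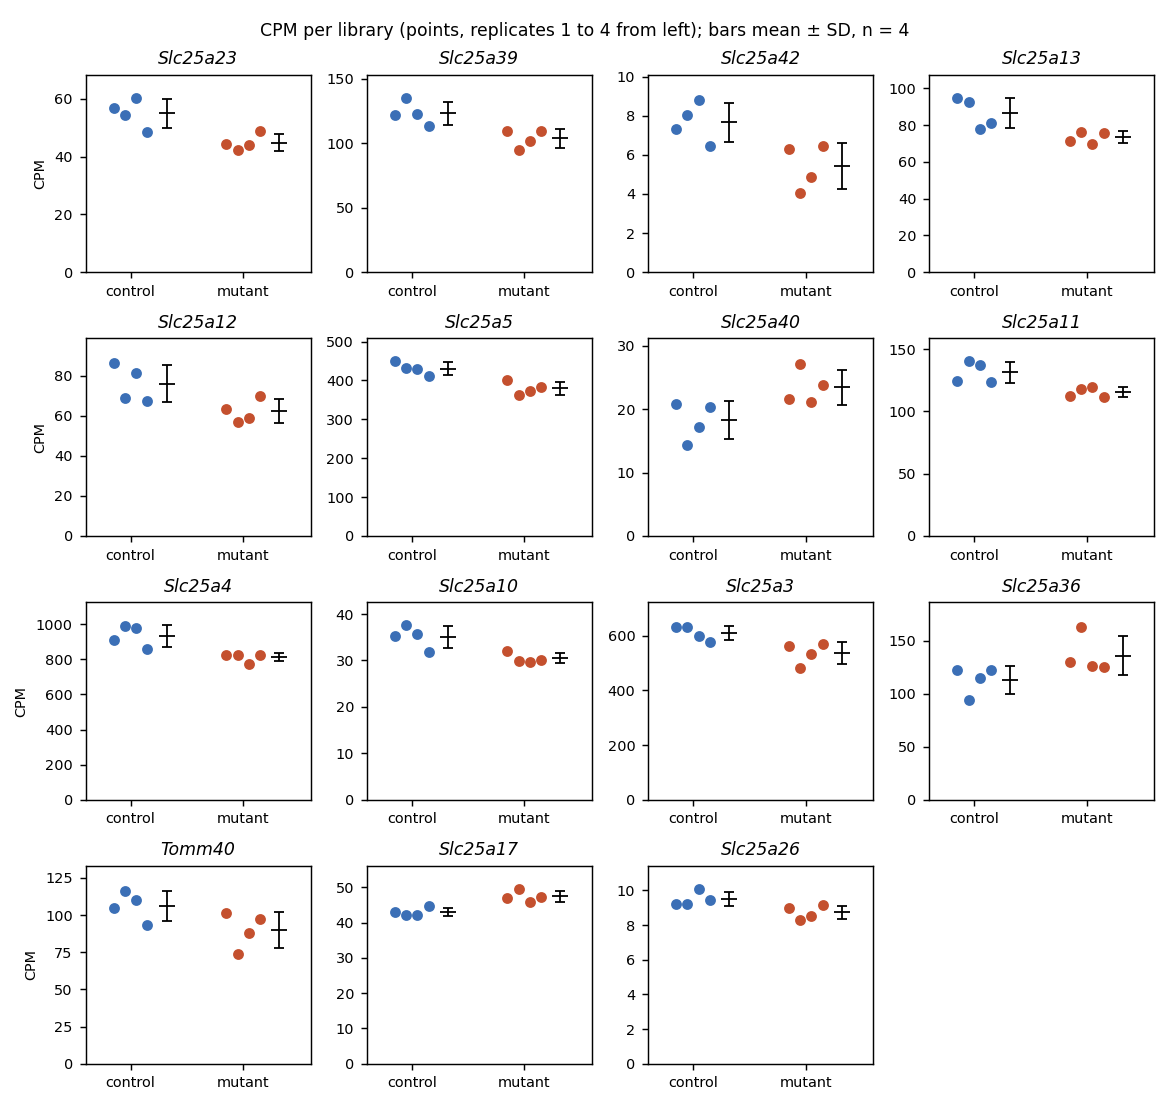
CPM (linear axis from 0) in each library for 14 of the 15 genes with an unadjusted p under 0.05 and for *Slc25a26*, with points for replicates 1 to 4 from the left and bars for the mean ± SD (n = 4). In *Slc25a4*, *Slc25a5* and *Slc25a3* all mutant-labelled points lie below all control points, and in *Slc25a40*, *Slc25a36* and *Slc25a17* all lie above.

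In the remaining carriers 0 of 15 reached the unadjusted level, against 12.1% of all genes. The 7 carriers of acylcarnitine and amino acids lay between -0.06 (*Slc25a45*) and 0.03 (*Slc25a38*, the glycine carrier) on the log2 scale, with a median of 0.01. *Slc25a20*, which brings long-chain acylcarnitines to fatty acid oxidation, was at 35.8 ± 1.95 CPM and 35.7 ± 2.74 CPM. The 95% confidence interval of its log2 fold change ran from -0.18 to 0.16. The 6 uncoupling-protein-like, outer membrane and orphan carriers had a median of 0.07, from -0.07 (*Slc25a30*) to 0.23 (*Slc25a35*). Of the iron carriers, the widely used form *Slc25a28* was at 24.4 ± 2.71 CPM and 23.7 ± 1.59 CPM. *Slc25a37* (mitoferrin 1), the form that feeds haem synthesis in red cell precursors, read 64.2, 79.1, 74.5 and 79.9 CPM in the controls and 111.8, 116.6, 74.2 and 59.5 CPM in the mutant-labelled libraries. Mutant-labelled replicates 1 and 2 were above all others, and replicate 4 was the lowest of the 8. The summed CPM of 9 erythroid markers took the same order within the mutant-labelled group, at 4547, 5370.4, 2948 and 1471. In control replicates 1 to 4 it was 1752, 3560.0, 3098 and 2866, which is not the order of *Slc25a37* there. All 9 of these markers were detected, none of them reached the unadjusted level (12.1% of all genes), and their part in the values of *Slc25a37* was not tested.

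In the import machinery 1 of 24 genes reached the unadjusted level (4.17%, against 12.1% of all genes). The groups overlapped in all 24, while 7.1% of all genes had groups that did not overlap. The gene at the unadjusted level was *Tomm40* (chr7:19701313-19715438), the pore of the outer membrane. It read 104.5, 117, 110.1 and 93.1 CPM in the controls and 102, 74.0, 87.8 and 97.1 CPM in the mutant-labelled libraries. Replicates 1 and 4 of the mutant-labelled group lay inside the control range, and the log2 fold change was -0.24 ± 0.10 (exact permutation p = 0.114). The TOM receptors stayed close to 0 on the log2 scale, with -0.02 ± 0.09 for *Tomm20*, 0.02 ± 0.07 for *Tomm22* and 0.03 ± 0.07 for *Tomm70a*. The widest of their 95% confidence intervals, that of *Tomm20*, ran from -0.21 to 0.17. Over the 9 TOM genes the median was -0.07. *Tomm34*, a cytosolic cochaperone named with them, was at 41.1 ± 2.70 CPM against 37.3 ± 1.11 CPM.

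The TIM23 complex, which passes presequence proteins through the inner membrane, had 5 of 6 log2 fold changes below 0 and a median of -0.07. Its channel *Timm23* read 115, 111, 100.2 and 108 CPM in the controls and 110.1, 112, 104 and 100.0 CPM in the mutant-labelled libraries, a log2 fold change of -0.03 ± 0.07. The receptor *Timm50* was at 61.9 ± 7.26 CPM against 55.5 ± 1.75 CPM (-0.15 ± 0.09), and *Timm44*, which tethers the import motor, at 69.9 ± 3.82 CPM against 67.9 ± 3.13 CPM (-0.04 ± 0.07). The small Tims and TIM22, which insert the carriers, had a median of -0.04 over 8 genes. The chaperone subunit *Timm13* had the most negative value of them, -0.25 ± 0.12 (limma, adjusted p = 0.439). The channel *Timm22* was at 38.1 ± 1.55 CPM against 36.4 ± 1.54 CPM (-0.07 ± 0.07). Summed over the class, import genes came to 1337 to 1425 CPM in the controls and 1284 to 1352 CPM in the mutant-labelled libraries, and the groups overlapped. *Tomm6os* had 1.66 ± 0.589 CPM against 1.31 ± 0.305 CPM. The library kit marks strand, but the strand setting of the counting is not given in the sources used here. Reads of *Tomm6os* may thus not be separable from those of *Tomm6*. *Tomm6os* also shares 3474 bp with the coding gene *Gm21981* on the other strand and 2054 bp with *Frs3* on its own. *Tomm6* shares 1648 bp with *Gm21981* on the same strand.

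The fold changes followed the base composition of the transcripts. Across the 62 members the Spearman correlation of log2 fold change with transcript GC content was -0.55, across the 38 carriers -0.51, across the 24 import genes -0.73 and across all genes -0.47. These are correlations across genes measured in the same 8 libraries, and genes are not independent replicates. The 12 lower members had a median GC content of 55.0% (46.6% to 61.2%), and the 3 higher ones 39.9% (39.5% to 45.1%), against 50.1% for all genes. The trend sat mainly in a few libraries, with log2 values changing per 10 points of GC by 0.22 in control replicate 2, 0.11 in control replicate 3 and -0.19 in mutant-labelled replicate 2, and by -0.06 to 0.02 in the other 5. After the trend of each library was removed by loess, the correlation over the members was -0.09. Then 11 members were lower and 1 was higher at the unadjusted level, against 6.32% and 4.67% of the 14594 genes with a GC content. The groups did not overlap for 8 lower and 2 higher members, against 3.56% and 3.05% of those genes (6.61% in all). The remaining higher one was *Slc25a40* (log2 fold change 0.23 ± 0.08), and *Slc25a36* and *Slc25a17* came to 0.13 ± 0.06 and 0.07 ± 0.05.

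The carriers of the ATP supply, with GC contents of 48.6% to 51.8%, kept their values. After the correction, *Slc25a4* had a log2 fold change of -0.18 ± 0.06, *Slc25a5* -0.20 ± 0.05 and *Slc25a3* -0.18 ± 0.06, and the groups of all 3 still did not overlap. *Slc25a12* (-0.33 ± 0.09) and *Slc25a13* (-0.27 ± 0.07) moved away from 0. *Slc25a39* moved toward 0 (-0.14 ± 0.06), as did *Slc25a11* (-0.13 ± 0.05) and *Slc25a23* (-0.21 ± 0.07). *Slc25a10* (-0.08 ± 0.07) and *Tomm40* (-0.11 ± 0.07) no longer reached the unadjusted level. *Timm17a*, a subunit of the TIM23 channel with a GC content of 43.2%, reached it (-0.20 ± 0.07), in place of *Tomm40* as the single import gene. Its groups then did not overlap. The median of the di- and tricarboxylate group became -0.11 and that of the adenine nucleotide and phosphate group stayed at -0.18.

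**Figure D3:**
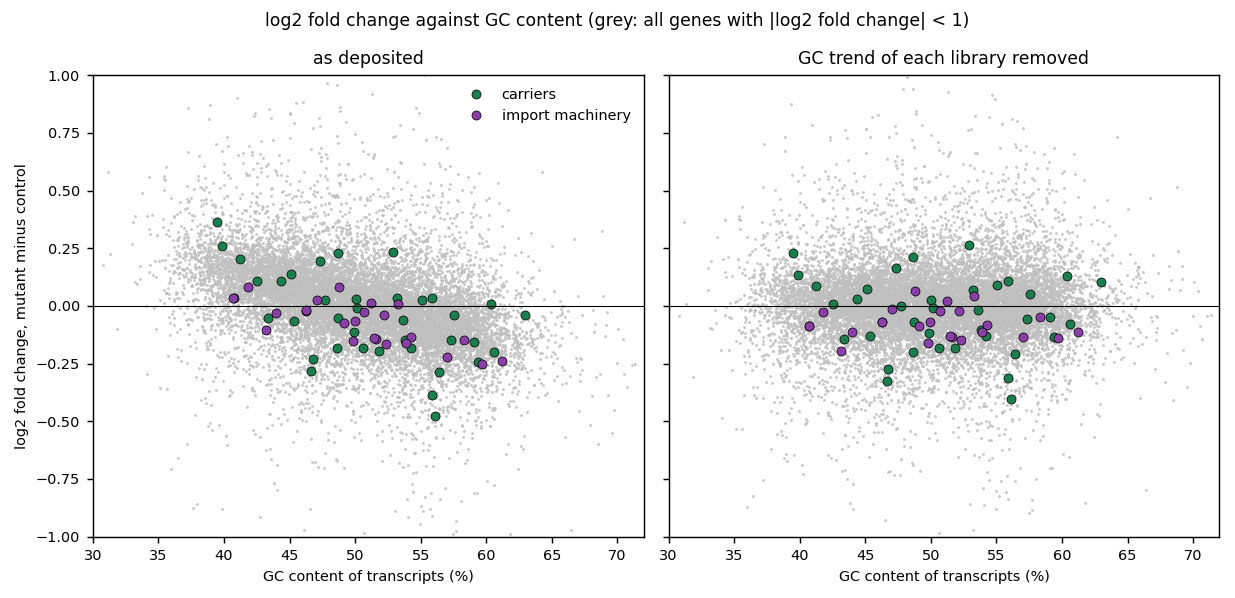
Log2 fold change (mutant-labelled minus control) against GC content of the transcripts (percent) for carriers (green), import genes (purple) and all genes (grey, within 1 log2 unit), with the deposited values on the left and after removal of each library's GC trend on the right. The downward slope on the left (Spearman -0.55 over the members) is near flat on the right (-0.09).

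Summed over the 38 carriers, the controls had 3143 to 3376 CPM (3290 ± 102, SD, n = 4) and the mutant-labelled libraries 2916 to 3100.0 CPM (3010 ± 81.9), with no overlap. The most abundant carriers weigh most in this sum. In the controls *Slc25a4*, *Slc25a3* and *Slc25a5* averaged 932, 609 and 431 CPM. In the mutant-labelled libraries they averaged 813, 537 and 380 CPM. Of the 38 carriers, 22 had log2 fold changes below 0 (57.9%, against 49.6% of all genes) and 16 above. Cardiomyocyte markers were lower in the mutant-labelled libraries. Their sum was 26325 to 31033 CPM in the controls and 20738 to 24492 CPM in the mutant-labelled libraries. At the unadjusted level 11 of 12 were lower (6.62% of all genes), with a median log2 fold change of -0.36. The exception was *Myl7*, an atrial myosin light chain, at -0.12 ± 0.11. All 12 were detected in every library, with the lowest value, 5.67 CPM, for *Nppa* in mutant-labelled replicate 2. The cardiac myosin gene *Myh7* was at 10362 ± 634 CPM against 7915 ± 649.7 CPM. For the lists that follow, the background over all genes was 5.45% higher and 6.62% lower at the unadjusted level. In the other marker lists the counts at the unadjusted level were 1 higher and 2 lower of 6 for smooth muscle, 2 lower of 8 for endocardium and endothelium, 0 of 8 for cushion mesenchyme, 1 lower of 6 for epicardium, 2 higher of 5 for neural crest, glia and neurons, 0 of 8 for macrophages and 0 of 2 for pharyngeal epithelium. The part of cardiomyocyte content in the carrier values was not tested, and in bulk tissue fewer cells of a type and less RNA per cell cannot be told apart.

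**Figure D4:**
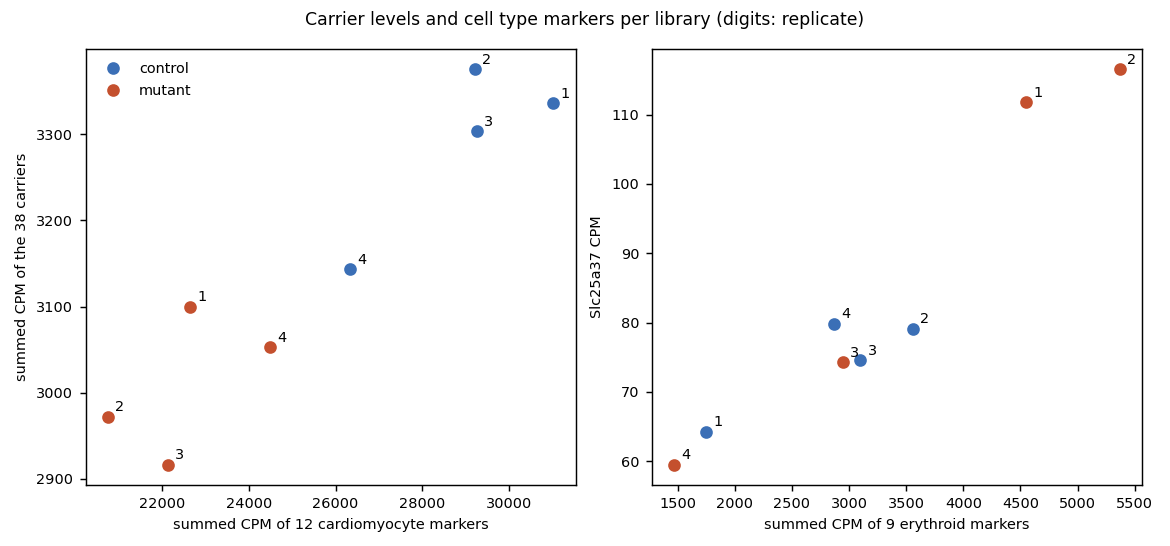
Left, summed CPM of the 38 carriers against summed CPM of 12 cardiomyocyte markers, and right, CPM of *Slc25a37* against summed CPM of 9 erythroid markers, with 1 point per library, the replicate number beside it, and axes that do not start at 0. The 4 control libraries lie at 3143 CPM or above and the 4 mutant-labelled ones at or below 3100.0 CPM on the left axis of the first panel, while *Slc25a37* is high in mutant-labelled replicates 1 and 2 only.

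Ratios between paralogs were taken within each library on the log2(CPM + 0.5) scale, and 10 pairs were compared. After adjustment over the 10 pairs, 0 passed the threshold (exact permutation test, smallest adjusted p = 0.143). The smallest p that 70 relabellings can give, 0.0286, stays above 0.05 after this adjustment unless most pairs reach it. The count of 0 therefore does not decide whether a single ratio differed. The log2 ratio of *Slc25a39* to *Slc25a40* was 2.52, 3.18, 2.79 and 2.45 in the controls and 2.32, 1.78, 2.24 and 2.18 in the mutant-labelled libraries. It was lower in every mutant-labelled library, by 0.61 on average (exact permutation p = 0.0286). After GC correction the difference was -0.37 and the groups still did not overlap. The log2 ratio of *Slc25a23* to *Slc25a24* was -0.66, -0.42, -0.17 and -0.88 in the controls and -0.97, -0.88, -0.92 and -0.95 in the mutant-labelled libraries, a difference of -0.40 (exact permutation p = 0.0286) that became -0.22 after GC correction (exact permutation p = 0.2). Control replicate 4 (-0.880) and mutant-labelled replicate 2 (-0.882) nearly met. The balance of the adenine nucleotide carriers *Slc25a4* and *Slc25a5* was nearly the same in both groups, at 1.11 ± 0.088 in the controls and 1.10 ± 0.068 in the mutant-labelled libraries. The difference of -0.01 had an exact permutation p of 0.857. For *Slc25a12* to *Slc25a13* the difference was -0.05 (exact permutation p = 0.743) and for *Timm17a* to *Timm17b* 0.04 (exact permutation p = 0.714). *Slc25a37* to *Slc25a28* spread from 1.25 to 2.40 in the mutant-labelled libraries and from 1.52 to 1.72 in the controls.

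**Figure D5:**
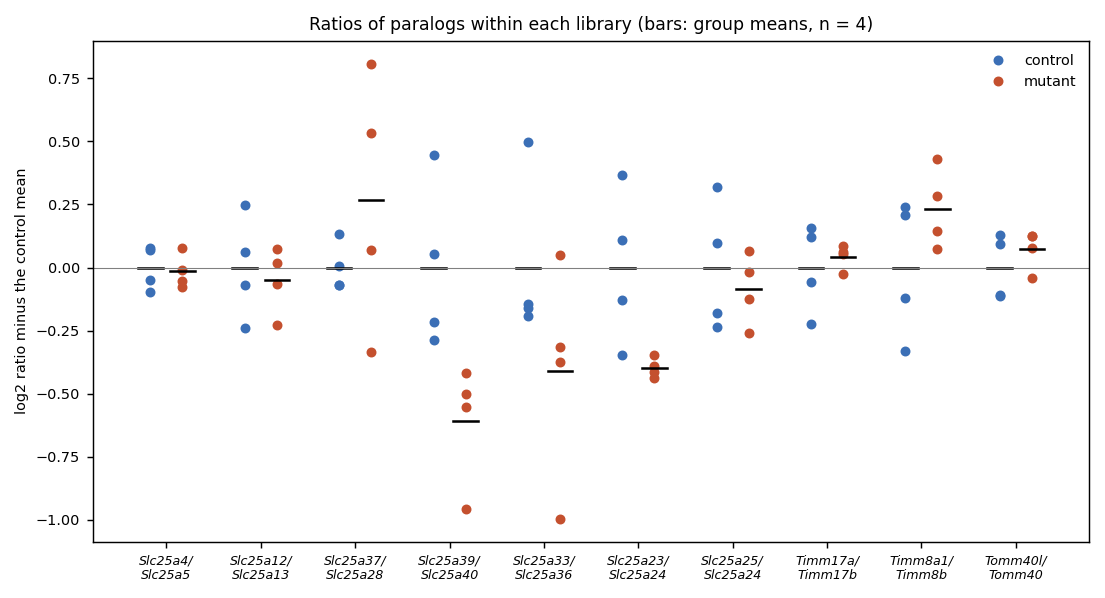
Log2 ratio of the CPM + 0.5 of 2 paralogs in each library, minus the mean of the 4 controls, for 10 pairs, with blue points for control and red for mutant-labelled libraries and bars for group means (n = 4). The groups separate for *Slc25a39*/*Slc25a40* (mean difference -0.61) and, by a very narrow gap, for *Slc25a23*/*Slc25a24* (-0.40), and overlap for the other 8 pairs.

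A list of 46 other genes of mitochondrial transport, import and biogenesis gave 1 higher and 7 lower at the unadjusted level (17.4%) and a median log2 fold change of -0.10. Of all genes, 5.45% were higher and 6.62% lower. After GC correction the counts were 1 and 15, against 4.67% and 6.32% of all genes. None passed the adjusted threshold. The regulators of mitochondrial gene expression held the pair with the smallest p-values, the only 2 of these 9 genes that reached the unadjusted level before GC correction. Of the 9, 5 had log2 fold changes below 0 (49.6% of all genes) and 4 had values above 0. After GC correction 4 of the 9 were lower at that level (6.32% of all genes), the pair with *Ppargc1a* (-0.23) and *Esrrg* (-0.20). Then 7 were below 0 (7260 of 14594 genes) and 2 above. *Ppargc1b*, a coactivator of mitochondrial biogenesis, read 17.2, 15.8, 16 and 12.1 CPM in the controls and 11.8, 9.49, 11.2 and 10.1 CPM in the mutant-labelled libraries, with no overlap (log2 fold change -0.50 ± 0.12, and -0.39 after GC correction). *Esrra*, an estrogen-related receptor that works with such coactivators, read 47.0, 51.7, 55.7 and 46.1 CPM against 41.0, 29.4, 41.0 and 39.4 CPM (-0.41 ± 0.11, and -0.28 after GC correction). *Mpc2*, a subunit of the pyruvate carrier, was at 35.2 ± 1.5 CPM against 29.7 ± 1.34 CPM (-0.24 ± 0.07). The others that were lower were the inner membrane insertase *Oxa1l* (-0.17), the matrix chaperone *Trap1* (-0.16), the sorting and assembly subunit *Samm50* (-0.16) and *Romo1* (-0.33). The metaxin *Mtx3* was higher (0.27 ± 0.09).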

How the data were processed

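RNA-seq of the OFT at E11.5 was analysed in 8 libraries, grouped by the genotype in the sample labels. Adapter trimming (cutadapt), quantification on GRCm38 with the Ensembl gene set (RSEM), a minimum of 1 CPM in 3 samples and TMM normalization (edgeR) were done by the authors, as their methods state. The deposited values are CPM scaled by the authors with TMM factors, and each gene of the table reaches 1 CPM in at least 4 libraries, more than that minimum asks. 0 columns were left out, and every value was a whole number of reads within 0.001 reads. Depth thus limits the low genes, of which 5 members averaged under 5 CPM.

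The members and gene lists were chosen with earlier results of these data known. All 14608 genes were tested with limma 3.58.1 on R 4.3.3 (lmFit, eBayes with trend) on log2(CPM + 0.5), two-sided, with Benjamini-Hochberg adjustment over all genes. A fold change on this scale understates that of low genes. Single genes and paralog ratios had an exact permutation test over the 70 relabellings. Scripts were tested on simulated data. Transcript GC content, lengths (mean over coding transcripts) and coordinates came from GENCODE M21 (GRCm38), found for 14594 genes, and GC trends were removed per library by loess (span 0.5). Named genes were those at an unadjusted p under 0.05, the most abundant of each role, paralog pairs and core import subunits, and other genes are given as ranges. 1 member enters the counts and medians but is not reported here by itself. *Slc25a26* was named after its values were seen. The alternatives were other pseudocounts, an expression filter, median-of-ratios scaling, GC and length correction, a replicate block and leaving out libraries. Count tests, also planned, were not run.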

Additional observations from a re-analysis of the deposited data

Results flagged for a closer look

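In 2 of 74 groups of 4 libraries tested, 1 library stood apart from the other 3 by Dixon's criterion at the 95% level, and chance alone marks about 1 in 20 such groups. *Slc25a4* was at 775 CPM in mutant-labelled replicate 3, with 824 to 827 CPM in the other mutant-labelled libraries. *Slc25a36* was at 163 CPM in mutant-labelled replicate 2, with 125 to 130.1 CPM in the others.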

How the results depend on the processing

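No member and no gene of the table passed the adjusted threshold under any of the 17 alternatives, and the 15 members at an unadjusted p under 0.05 kept their direction in all of them. Of the 15, between 10 and 15 stayed under 0.05 in the other 16 alternatives, and 8 with control replicate 2 and mutant-labelled replicate 2 both left out, an alternative chosen after seeing the data. *Slc25a23*, *Slc25a39*, *Slc25a13*, *Slc25a12*, *Slc25a5* and *Slc25a11* stayed under 0.05 in every alternative. *Slc25a4* missed it only without mutant-labelled replicate 3. Counting the main fit, there were 18 settings. *Slc25a3* was under 0.05 in 12 of these, with a highest p of 0.0944 (limma). *Slc25a42* and *Slc25a40* were under it in 17, *Slc25a10* in 13, *Slc25a36* in 12, *Tomm40* in 9 and *Slc25a17* in 5. The count of higher members was 1 with the replicate block (3.83% of all genes), 1 with GC correction (4.67%), 1 with both together (4.36%), and 0 with both libraries left out (3.29%). With 1 library left out at a time it ran from 1 to 3, and the lower count from 9 to 15. The shares of all genes in those fits are not given here. With all 8 libraries they were 5.45% higher and 6.62% lower. Same-numbered libraries did not deviate together (correlations 0.03, -0.19, 0.03 and -0.05), so the numbers were not taken as pairs. With the replicate block 10 members were lower (5.1% of all genes). The median of the di- and tricarboxylate carriers was -0.11 with GC correction, with or without the block. That of all carriers was -0.0039 with both libraries left out and -0.068 to -0.0092 with 1 left out, and that of the acylcarnitine and amino acid carriers -0.047 to 0.035. Values near 0 turned sign. With GC correction, with or without the block, the log2 fold change of *Slc25a28* was 0.10, of *Slc25a46* -0.087, of *Tomm22* -0.013 and of *Tomm70a* -0.088. With GC correction the paralog log2 ratio differed by 0.019 for *Slc25a4*/*Slc25a5*, 0.083 for *Slc25a25*/*Slc25a24*, -0.064 for *Timm17a*/*Timm17b* and -0.033 for *Tomm40l*/*Tomm40*. With length correction *Timm23* was 0.0094. With both libraries left out, the log2 fold changes were 0.056 for *Slc25a28*, 0.031 for *Slc25a20*, -0.012 for *Slc25a46*, 0.013 for *Tomm6os*, 0.038 for *Slc25a33*, -0.020 for *Timm8a1*, 0.027 for *Tomm20* and -0.037 for *Tomm70a*. With 1 library left out, ranges that crossed 0 were -0.064 to 0.0039 for *Timm23*, -0.11 to 0.015 for *Slc25a28*, -0.047 to 0.043 for *Slc25a20*, -0.030 to 0.089 for *Slc25a46*, -0.075 to 0.036 for *Tomm20*, -0.011 to 0.056 for *Tomm22* and -0.022 to 0.074 for *Tomm70a*. For the paralog ratios they were -0.048 to 0.011 (*Slc25a4*/*Slc25a5*), -0.13 to 0.032 (*Slc25a12*/*Slc25a13*), -0.16 to 0.022 (*Slc25a25*/*Slc25a24*) and -0.032 to 0.094 (*Timm17a*/*Timm17b*). The causes were not tested. Count tests on reads recovered from the CPM values had been planned as alternatives and were not run, so what a count model would call is not known here. Members under 5 CPM rest on few reads, which limits their precision.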
